A study of Mus musculus with 19 samples.

Results

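Gene expression was compared between TET2-FLT3 leukemic cells of vehicle-treated mice and wild-type (WT) cells of the same sorted population. The comparison took every accession of the deposited table and the 4 libraries labelled TET2-FLT3 vehicle with the 4 labelled WT, 8 of 19 libraries in all. The TET2-FLT3 mice had the genotype the labels write as Tet2-/-;Flt3-IDT and are described as having acute myeloid leukemia (AML), and their libraries are called V1, V5, V5-2 and V19. The WT mice (wt1, wt2, wt3 and wt4) are labelled as untreated, so genotype, leukemia and vehicle cannot be told apart. All mice were C57BL/6, and the cells were primary, uncultured and sorted as lineage-negative, Sca-positive and cKit-positive (lin-Sca+cKit+, or LSK). A further group, 3 vehicle libraries of leukemic Idh2 R140Q;Flt3-ITD mice (IDH2-FLT3 vehicle), serves for a direct test of where the TET2-FLT3 cells differed from it. The other 8 libraries are 4 of Idh2 R140Q;Flt3-ITD mice given AG-221, an inhibitor of mutant IDH2, and 4 of Tet2-/-;Flt3-IDT mice given 5-Aza, a hypomethylating agent. They are not compared here, but all 19 libraries set the expression filter, the scaling and the spread behind every test. The labels do not say whether each library came from its own animal, or how V5 and V5-2 are related. The IDH2-FLT3 vehicle libraries are V3, V3-2 and V9, and the relation of V3 to V3-2 is likewise not given. The p-values therefore reflect only how these libraries vary, which may be technical.

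As background, the LSK gate holds hematopoietic stem cells and early multipotent progenitors. TET2 is an enzyme that oxidizes methylcytosine and so takes part in removing DNA methylation. FLT3 is a receptor tyrosine kinase of early progenitors and dendritic cell precursors. Its internal tandem duplication (ITD) makes it signal without ligand, through STAT5 and the MAPK pathway among others, and both lesions recur in AML.

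Library totals ran from 10.18 to 12.25 in WT and from 9.636 to 20.38 in TET2-FLT3 vehicle, in units of 1e6 counts. The TET2-FLT3 libraries were less alike than the WT ones, with Pearson correlations of log2 levels from 0.8736 to 0.9444 against 0.9645 to 0.9827. V1 and V5-2 stood apart in opposite directions. V1 had the fewest accessions detected, 12088 against 13914 to 15509 in the other 7, and 9.689% of its counts fell on accessions without a gene name; in V5-2 that share was 0.9749%. V3-2 of IDH2-FLT3 vehicle resembled V5-2 in this, with a total of 20.14 and a share of 0.8917%. Of all 19 libraries, V5-2 and V3-2 had the highest totals and the lowest shares without a gene name. Whether they were prepared together is not labelled. On the first principal component of the 8 libraries (45.5% of the variance) both groups separated. V1 and V5-2 lay at opposite ends of the second (27.6%). Counts of list members called against WT are therefore given also without V1 and V5-2.

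Levels are counts per 1e6 counts (CPM) with TMM scaling, given per library in the order wt1, wt2, wt3, wt4 and V1, V5, V5-2, V19, or as mean ± SD (n = 4 per group). Changes are log2 fold changes, TET2-FLT3 vehicle minus WT, with their standard error. The words rose and fell are kept for genes with a Benjamini-Hochberg adjusted p under 0.05 in edgeR's quasi-likelihood test. Zbtb46, Mecom, Gprc5c, Satb1, Il18r1, Socs2, Ncam2 and Cp are listed under 2 to 4 accessions each, so their counts are incomplete. Where leaving out 1 library ended a call, those libraries and the highest adjusted p follow it.

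The targeted genes came first. Tet2 was at 122, 117, 137 and 145 CPM in WT and at 118, 94.1, 58.7 and 156 CPM in TET2-FLT3 vehicle. The groups overlapped and the change of -0.29 ± 0.31 (adjusted p = 0.58) did not pass the test. A count over the whole transcript does not check a deletion, because reads from the remaining exons are counted too. Flt3 was at 328, 304, 534 and 465 CPM in WT and 219, 299.5, 666 and 364 CPM in TET2-FLT3 vehicle, also overlapping (-0.07 ± 0.41 (adjusted p = 0.926)). Idh2, which is not altered in these mice, was at 178 ± 31.4 and 347 ± 149.9 CPM and did not pass either (0.96 ± 0.36 (adjusted p = 0.094)).

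The gate could be checked only in part. The accessions of Kit and Ly6a, the genes of cKit and Sca-1, held 4 and 0 counts over all 19 libraries. Both genes are listed under several accessions, and Dnmt1, Dnmt3a and Dnmt3b, which are too, held 79, 15 and 0 counts. Among 12 tested gate and lineage antigens, 1 rose and 5 fell (1 and 3 without V1 and V5-2). Cd48, a surface antigen that marks committed progenitors among LSK cells, rose from 364 ± 65.8 to 1223 ± 558 CPM (1.75 ± 0.41 (adjusted p = 0.0116)), and Slamf1, its counterpart on stem cells, fell. Cd3e, an antigen of T cells that the lineage gate removes, was present in WT at 4.04 ± 1.77 CPM and fell in TET2-FLT3 cells. It had 207 counts over the WT libraries and 3 over the others, a ratio of 77.3 with a 95% counting interval of 26.1 to 378. The leukemic libraries thus held less RNA of this antigen than the WT ones; in bulk RNA, fewer cells of a type and less RNA per cell cannot be told apart.

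Of 11830 accessions that passed the expression filter, 1199 (10.1%) differed between the groups, 524 (4.43%) higher and 675 (5.71%) lower in TET2-FLT3 vehicle. In 2190 (18.5%) the 2 groups of 4 libraries did not overlap. The counts of list members below stand beside these shares (10.1% called, 4.43% higher and 5.71% lower). The median change of all tested accessions was 0.07. Without wt1, wt3 or wt4 the number of calls fell to 638, 563 and 503, and without both V1 and V5-2 it was 261 (132 higher and 129 lower). A fit of only these 2 groups called 848. On log2(FPKM + 1) values the split was 304 higher and 1580 lower, with the median of all tested accessions at -0.175, so a small change of a whole gene family depends on the scaling.

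**Figure D1:**
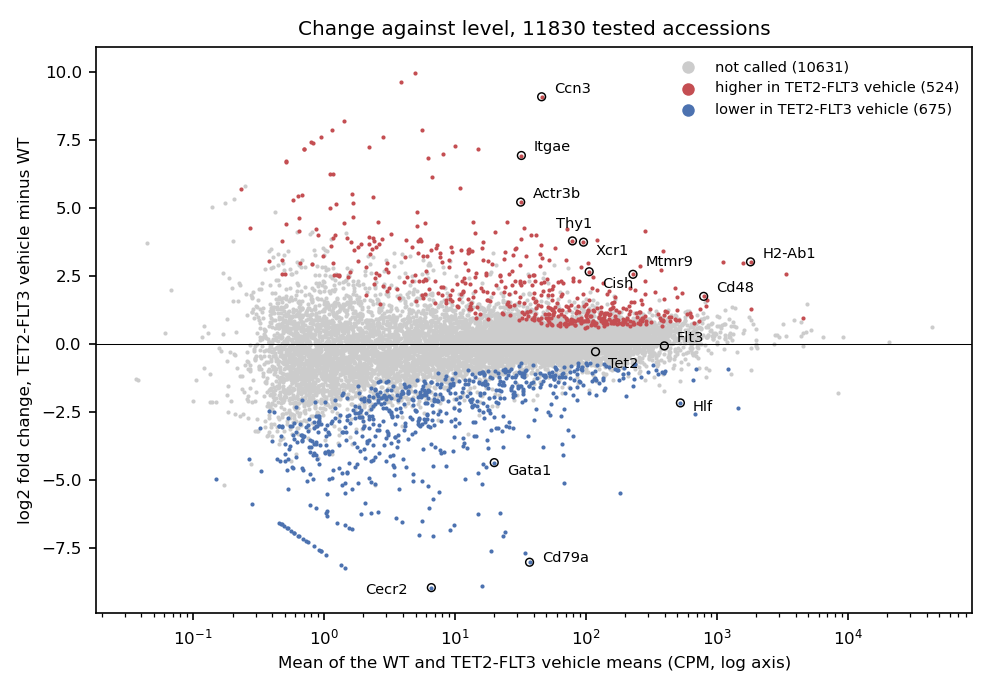
Each point is 1 tested accession, with the mean level of the WT and TET2-FLT3 vehicle groups in CPM on a log axis and the log2 fold change on the other axis; red points were called higher (524), blue points lower (675) and grey points were not called. Ccn3 and Itgae lie near the top, Cecr2 and Cd79a near the bottom, and Tet2 and Flt3 close to 0.

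Genes of conventional dendritic cells, the cells that take up and present antigen, were higher in the TET2-FLT3 libraries. Of 21 listed genes 15 were tested, and 11 rose and none fell, with a median change of 2.70 against 0.07 for all accessions. Xcr1, the chemokine receptor of the cross-presenting subset, was at 10.4, 20.2, 11.2 and 11.4 CPM in WT and 213, 264, 135 and 103 CPM in TET2-FLT3 vehicle (3.74 ± 0.84 (adjusted p = 0.00894)). The lowest leukemic library, V19, lay well above the highest WT library, wt2. Batf3, a transcription factor that this subset needs, went from 1.84, 3.48, 0.744 and 2.82 to 27.2, 38.2, 28.0 and 27.9 CPM (3.76 ± 0.91 (adjusted p = 0.013); the call ended without wt3, with an adjusted p of up to 0.0511). Itgae, which encodes CD103, an integrin chain of the same subset, was nearly silent in WT at 0.460, 0.604, 0.496 and 0.484 CPM and at 89.8, 55.5, 60.1 and 49.8 CPM in TET2-FLT3 vehicle (6.94 ± 1.03 (adjusted p = 0.000384)). Tlr3, a sensor of double-stranded RNA, rose by 3.29 ± 0.81 (adjusted p = 0.0143) (the call ended without wt1, with an adjusted p of up to 0.0509), and Rab7b, a GTPase of late endosomes, rose by 2.82 ± 0.65 (adjusted p = 0.00979). Zbtb46, a transcription factor of committed dendritic cells, was at 0.307, 1.36, 1.405 and 2.34 CPM in WT and 8.05, 4.93, 6.12 and 3.75 CPM in TET2-FLT3 vehicle. Every leukemic library lay above the WT range, and the change was not called (2.07 ± 1.01 (adjusted p = 0.191)). Without wt1 or wt3 the number of members called higher was 6, and without V1 and V5-2 it was 5.

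Genes of MHC class II, the molecules that display antigen to helper T cells, moved the same way in part: 4 of 11 tested members rose and none fell. H2-Ab1, a class II beta chain, was at 398, 603, 299 and 289 CPM in WT and 3665, 4880.1, 2970.1 and 1368 CPM in TET2-FLT3 vehicle (3.02 ± 0.76 (adjusted p = 0.0174)). The groups did not overlap, V19 being the lowest leukemic library, and the call ended without wt1, wt3 or wt4, with an adjusted p of up to 0.0608. H2-Eb1 rose by 3.01 ± 0.83 (adjusted p = 0.0272), a call that ended without wt1, wt3 or wt4, with an adjusted p of up to 0.0826. Ifi30, a lysosomal reductase that prepares antigen, rose by 2.32 ± 0.51 (adjusted p = 0.00809), and H2-DMb1, which helps load peptides, had a change of 1.45 ± 0.48 (adjusted p = 0.058) and was not called. Without V1 and V5-2 none of the 11 was called by edgeR, and without wt1, wt3 or wt4 1 was. Of 18 tested MHC class I and immunoproteasome genes, 1 rose (5.56%, near the 4.43% of all accessions called higher). Without V1 and V5-2, none did.

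Monocyte and macrophage genes also rose, 9 of 22 tested, with none lower and a median change of 1.36. Ccr2, the receptor that guides monocytes out of the marrow, was at 67.0, 92.3, 41.0 and 48.1 CPM in WT and 527, 685, 318 and 277 CPM in TET2-FLT3 vehicle (2.86 ± 0.55 (adjusted p = 0.00305)). Adgre1, the gene of the F4/80 antigen, went from 2.25 ± 0.292 to 22.8 ± 6.23 CPM (3.34 ± 0.56 (adjusted p = 0.00119)). Mpeg1, a pore-forming protein of macrophages, rose by 3.41 ± 0.76 (adjusted p = 0.00837), with V5-2 the highest library. Cx3cr1 and Tlr2, a chemokine receptor and a sensor of bacterial lipoproteins, rose by 1.93 ± 0.40 and 1.54 ± 0.30 and kept their calls without each library in turn. Csf1r, the receptor for the main growth factor of macrophages, was at 20.7 ± 9.599 and 49.9 ± 31.1 CPM and was not called (1.27 ± 0.55 (adjusted p = 0.139)). Without wt1 or wt3, 5 of the 22 were called, and without V1 and V5-2, 4 were.

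The share of granulocyte-monocyte progenitor genes called, 12%, was near the 10.1% of all accessions. All calls of that list were higher, a direction in which 4.43% of all accessions were called. The share of late neutrophil genes called, 5.26%, was below 10.1%. Of 25 tested granulocyte-monocyte progenitor genes 3 rose, the granule proteases Ctsg and Prss57 and the cytokine receptor chain Csf2rb, and 22 were not called. Without wt3 or wt4, and without V1 and V5-2, 1 was called higher. Without V1 it was 1 higher and 1 lower. Csf2rb, shared by the receptors for GM-CSF, IL-3 and IL-5, went from 109.5, 108, 91.0 and 98.7 to 129, 304, 241 and 289 CPM (1.24 ± 0.26 (adjusted p = 0.00626)). Ctsg rose by 1.60 ± 0.41 (adjusted p = 0.0196), a call that ended without V1, wt3 or wt4, with an adjusted p of up to 0.0731, and that of Prss57 ended without V1, V5, wt1, wt3 or wt4, with an adjusted p of up to 0.142. Mpo, myeloperoxidase of the primary granules, was at 2554, 4911, 1552 and 557 CPM in WT and 2165, 6283, 5309 and 2215 CPM in TET2-FLT3 vehicle, and the groups overlapped (0.74 ± 0.58 (adjusted p = 0.429)). Elane, neutrophil elastase, had a change of -0.96 ± 0.61 (adjusted p = 0.32). Of 19 tested late neutrophil genes only Padi4, an enzyme of chromatin in neutrophils, was called, and it rose by 1.12 ± 0.21 (adjusted p = 0.00245). The secondary granule gene Ngp had lower leukemic levels (608 ± 342 and 182 ± 124 CPM) without passing the test (-1.74 ± 0.87 (adjusted p = 0.203)), and S100a8 was spread widely, at 1294, 122, 52.1 and 518 CPM.

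**Figure D2:**
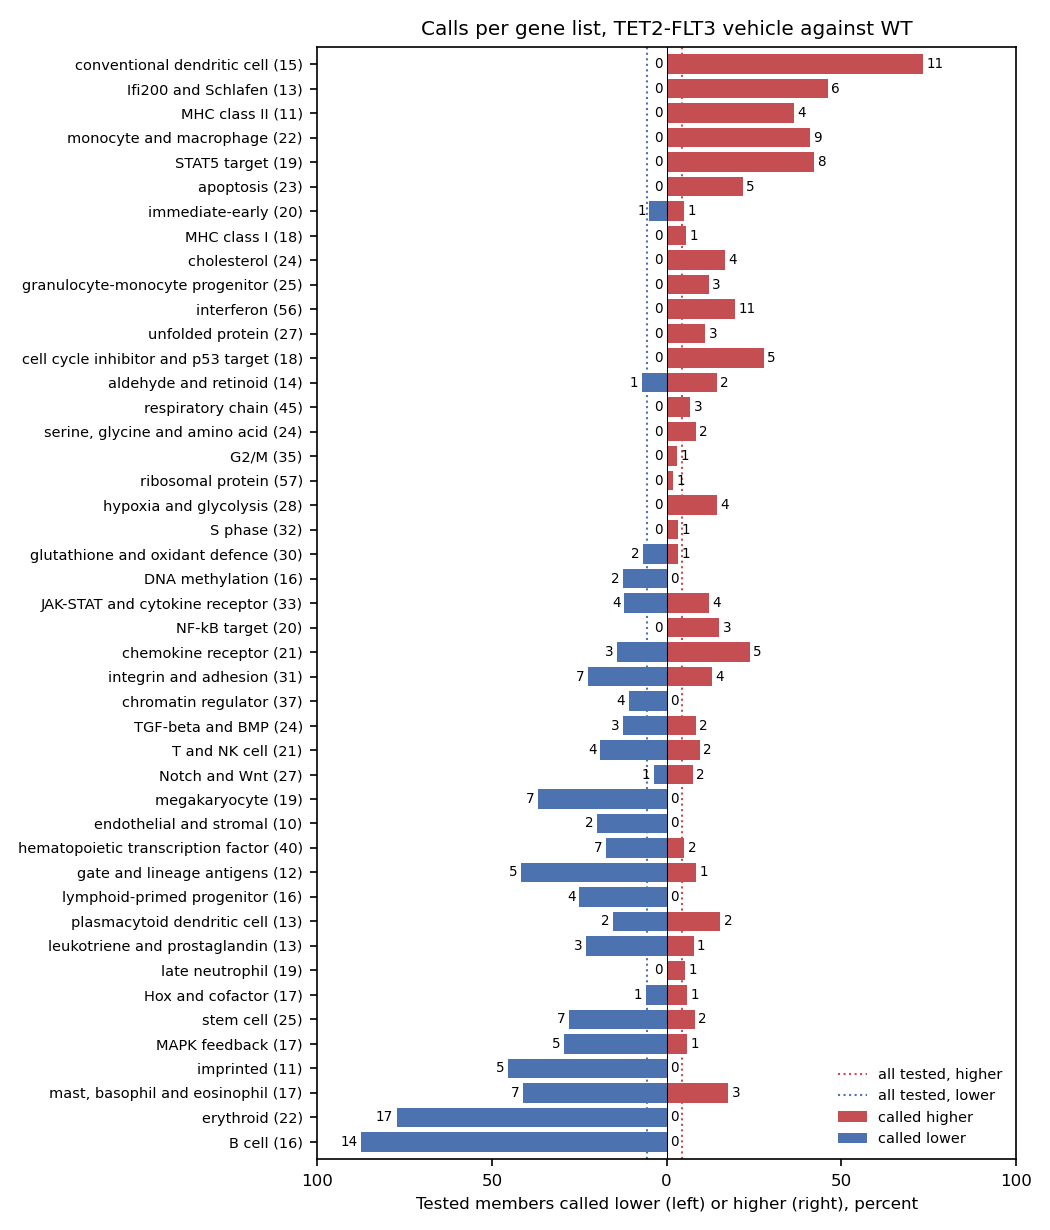
Bars show the percent of each list's tested members (number in brackets) called higher (red, right) or lower (blue, left) in TET2-FLT3 vehicle, with the count at the bar's end, for lists of at least 10 tested members, ordered by median change. Dotted lines mark the share of all tested accessions, 4.43% higher and 5.71% lower; conventional dendritic cell genes (11 of 15) reach farthest to the right and B cell genes (14 of 16) farthest to the left.

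Stem cell genes were lower in part. Of 25 tested members 7 fell, 2 rose and 16 were not called, with a median change of -0.97. Hlf, a transcription factor of stem cells, was at 743, 627, 1062 and 1020.5 CPM in WT and 150.2, 162, 121 and 332 CPM in TET2-FLT3 vehicle (-2.17 ± 0.44 (adjusted p = 0.00439)). Every leukemic library was below the lowest WT library, V19 being the nearest. Gata2, needed for stem cell upkeep, fell by 1.68 ± 0.30 (adjusted p = 0.00174), Tgm2, a transglutaminase, fell by 2.88 ± 0.63 (adjusted p = 0.00712), and Slamf1, the CD150 antigen of stem cells, fell by 3.25 ± 0.72 (adjusted p = 0.00827). Mecom, another stem cell regulator, was lower without passing the test (-1.22 ± 0.52 (adjusted p = 0.138)), and Procr, the EPCR antigen of stem cells, was at 73.7, 56.4, 59.3 and 70.1 and 55.7, 32.8, 35.7 and 46.1 CPM (-0.61 ± 0.34 (adjusted p = 0.252)). Gprc5c, an orphan receptor of dormant stem cells, rose from 1.07 ± 0.541 to 10.3 ± 3.21 CPM (3.25 ± 0.79 (adjusted p = 0.0139)), and the call ended without wt4, with an adjusted p of up to 0.0508. Without wt1 the number of members that fell was 4, and without V1 and V5-2 it was 3.

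Genes of early B cells were also lower. Of 16 tested B cell genes 14 fell and none rose, with a median change of -4.53. Cd79a, the signaling chain of the B cell receptor, was at 84.5, 73.4, 78.5 and 59.4 CPM in WT and 0.409, 0.203, 0.246 and 0.288 CPM in TET2-FLT3 vehicle (-8.04 ± 0.85 (adjusted p = 1.22e-05)). Vpreb3, a surrogate light chain gene, fell by 7.71 ± 0.84 and Bank1, an adaptor of B cell receptor signaling, fell by 4.98 ± 0.60. Both kept their calls without each library in turn. Pou2af1, a B cell coactivator, had 1627 counts in WT and 3 in TET2-FLT3 vehicle, a ratio of 608 (95% counting interval 208 to 2950). The summed level of the 16 genes was 616 to 792 CPM in the WT libraries and 67.9 to 118 CPM in the leukemic ones. Of 16 tested genes of lymphoid-primed progenitors 4 fell: Rag1, a recombinase gene (-6.05 ± 1.16 (adjusted p = 0.00301)), Satb1, a chromatin organizer (-2.76 ± 0.59 (adjusted p = 0.0061)), Bach2, a repressor that favours lymphoid fate (-2.05 ± 0.44 (adjusted p = 0.00626)), and Il7r (-3.78 ± 0.94 (adjusted p = 0.0159)), whose call ended without wt4, with an adjusted p of up to 0.0508. Without V1 and V5-2, 11 of the B cell genes and 2 of the lymphoid-primed genes were called lower.

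Plasmacytoid dendritic cell genes, which mark the interferon-producing dendritic cells, were called in both directions. Of 13 tested members 2 fell and 2 rose, with a median change of -0.90 and 3 positive changes, and the list's median lay below the WT mean in all 4 leukemic libraries (-0.61 in V1, -1.34 in V5, -1.21 in V5-2 and -0.62 in V19). Both higher calls ended without wt1, wt2, wt3 or wt4, with the count of falls at 2; without V1 and V5-2, none rose and 1 fell, and on log2(FPKM + 1) values none rose and 8 fell. Cox6a2, a cytochrome oxidase subunit, went from 31.4, 31.1, 33.7 and 28.0 to 0.682, 2.23, 0.657 and 2.11 CPM (-4.44 ± 0.64 (adjusted p = 0.000285)), and Ly6d fell by 3.78 ± 0.90 (adjusted p = 0.0123). Siglech, a surface marker of these cells, was at 25.3 ± 4.51 and 5.70 ± 4.24 CPM and was not called (-2.16 ± 1.09 (adjusted p = 0.209)). Tlr9, a sensor of DNA, was called higher on the strength of V5-2, at 0.819, 4.53, 31.5 and 2.11 CPM against 0.706 ± 0.151 in WT, and the call ended without V5-2, wt1, wt2, wt3 or wt4, with an adjusted p of up to 0.163. The members' summed level overlapped between the groups, from 410.0 to 517 CPM in WT and 374 to 519.8 CPM in TET2-FLT3 vehicle.

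Among T and NK cell genes, 2 of 21 rose and 4 fell (1 and 2 without V1 and V5-2). The share called was 28.6%, against 10.1% of all accessions. Thy1, a surface antigen carried by stem cells and T cells, went from 15.3, 8.92, 8.59 and 9.68 to 192, 45.9, 175 and 176 CPM (3.79 ± 0.61 (adjusted p = 0.000734)), with V5 the lowest of the leukemic libraries and still above all WT libraries. Il18r1, a receptor for interleukin 18, rose by 3.11 ± 0.72 (adjusted p = 0.0107), while Cd2, an adhesion molecule of T cells, fell by 6.41 ± 1.04 (adjusted p = 0.000814).

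Most red cell genes were lower in the leukemic libraries. Of 22 tested erythroid genes 17 fell and none rose, with a median change of -4.25. Gata1, the factor that drives erythroid and megakaryocyte fate, was at 37.4, 60.4, 26.7 and 28.1 CPM in WT and 1.09, 2.43, 2.38 and 1.25 CPM in TET2-FLT3 vehicle (-4.37 ± 0.55 (adjusted p = 9.01e-05)). The groups lay far apart, with the highest leukemic library at 2.43 CPM and the lowest WT library at 26.7 CPM. Klf1, an activator of globin genes, fell by 2.96 ± 0.56 (adjusted p = 0.00271), Cldn13 fell by 6.86 ± 0.65 (adjusted p = 3.55e-06) and Ermap, a red cell membrane protein, fell by 6.91 ± 0.80 (adjusted p = 4.29e-05). Epor, the erythropoietin receptor, went from 13.8, 13.6, 9.67 and 11.4 to 0, 0.135, 0.452 and 0.576 CPM (-5.24 ± 0.98 (adjusted p = 0.0026)). The summed level of the 22 genes was 2540 to 3337 CPM in WT and 488 to 876 CPM in TET2-FLT3 vehicle, and Car1 had no count in the leukemic libraries. With a library left out, 15 to 17 members fell, and without V1 and V5-2, 10 did.

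Of 19 tested megakaryocyte genes 7 fell, with no member higher and a median change of -0.58. The share called was 36.8%, against 5.71% of all accessions called lower. Pf4, platelet factor 4, was at 135, 131, 139.7 and 172 CPM in WT and 31.1, 4.53, 2.54 and 18.3 CPM in TET2-FLT3 vehicle (-3.38 ± 0.75 (adjusted p = 0.00862)). Gp9, part of the von Willebrand factor receptor, fell by 2.19 ± 0.36 (adjusted p = 0.000969), and Cavin2, a caveolar coat protein, fell by 6.25 ± 0.89 (adjusted p = 0.000273). Mast cell, basophil and eosinophil genes were mixed, with 7 of 17 lower (Gata2, named above, among them) and 3 higher. The share of this list called was 58.8%, against 10.1% of all accessions. Slc18a2, a transporter that loads amines into granules, fell by 1.89 ± 0.32 (adjusted p = 0.00118), Fcer1a, the IgE receptor alpha chain, fell by 3.02 ± 0.69 (adjusted p = 0.0101) and Prg2, the eosinophil major basic protein, fell by 3.19 ± 0.84 (adjusted p = 0.0222), a call that ended without V5, V5-2 or wt2, with an adjusted p of up to 0.0682. Mcpt8, a basophil protease, rose by 1.26 ± 0.36 (adjusted p = 0.0328), and the call ended without V1, V19, wt1, wt3 or wt4, with an adjusted p of up to 0.13. Without wt3 or wt4, 4 megakaryocyte genes fell; without V1 and V5-2, 3 members of each list were called, all lower.

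These lineage genes mark cells that the gate is meant to leave out (B, T and red cells) as well as fates open to LSK cells. Their part in the other differences was not tested.

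**Figure D3:**
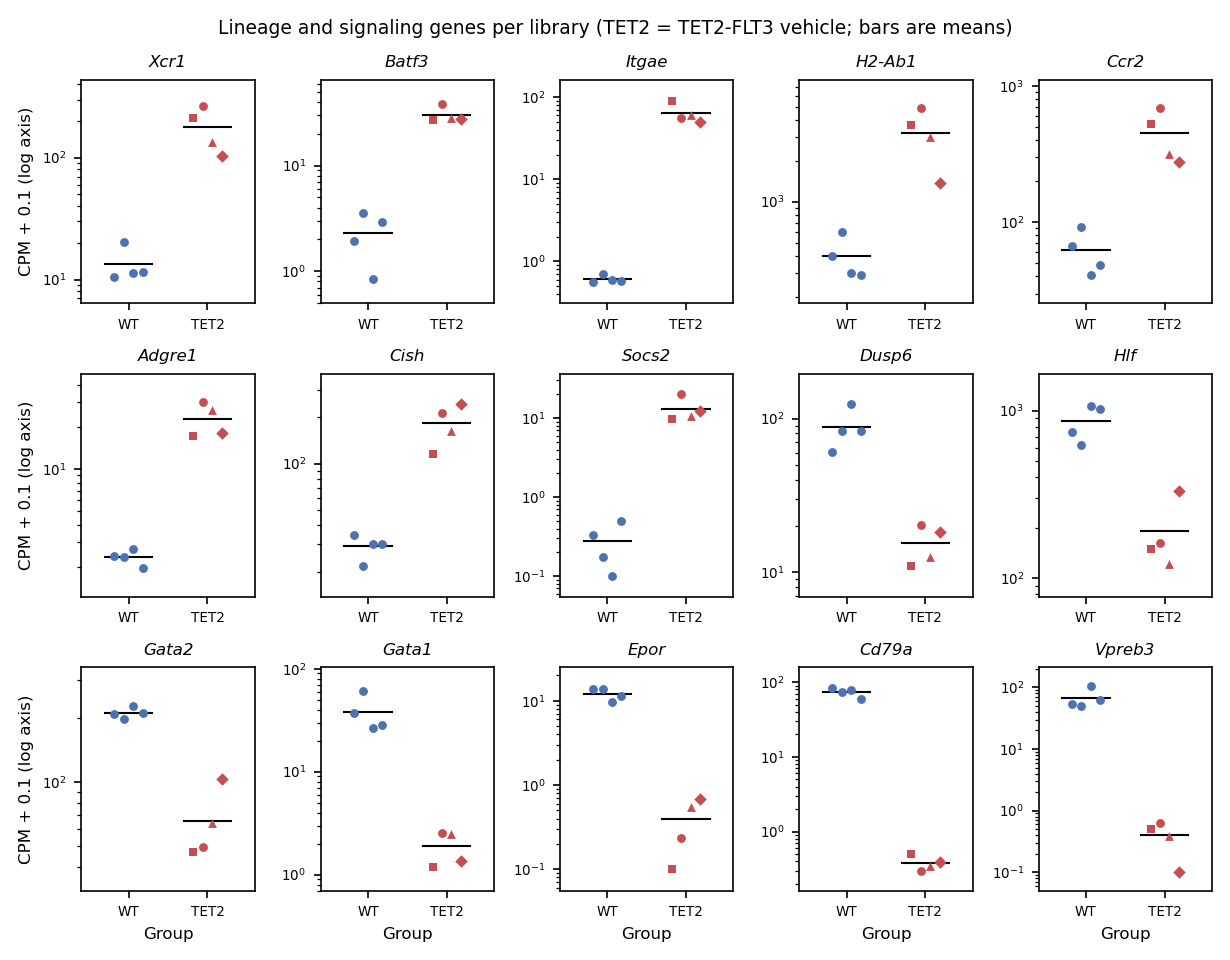
Each panel shows the level of 1 gene (CPM + 0.1, log axis) in the 4 WT libraries (blue) and the 4 TET2-FLT3 vehicle libraries (red; square V1, circle V5, triangle V5-2, diamond V19), with the group mean as a bar. All 15 are called genes picked for display, so the lack of overlap in every panel follows in part from that choice. Of all tested accessions, 18.5% did not overlap. The dendritic, monocyte and STAT5 target genes shown lie higher in TET2-FLT3 vehicle and Dusp6, stem, erythroid and B cell genes lower.

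Downstream of FLT3, genes activated by the transcription factor STAT5 and genes that report on MAPK signaling were called mostly in opposite directions. Of 19 tested STAT5 target genes 8 rose and none fell, with a median change of 1.13. Of 17 tested MAPK feedback genes 5 fell and 1 rose, with a median of -1.22. The shares called were 42.1% for the STAT5 list and 35.3% for the MAPK list, against 10.1% of all accessions. The start site of Cish, a STAT5-induced inhibitor of cytokine receptors, is shown because its window holds a pair of matches to the STAT motif TTCNNNGAA, which reads the same on both strands. The window is from RefSeq on GRCm38.p6, chr9:107296409-107296708, plus strand, 250 bases before to 50 after the start, with the matches in capitals.

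Cish: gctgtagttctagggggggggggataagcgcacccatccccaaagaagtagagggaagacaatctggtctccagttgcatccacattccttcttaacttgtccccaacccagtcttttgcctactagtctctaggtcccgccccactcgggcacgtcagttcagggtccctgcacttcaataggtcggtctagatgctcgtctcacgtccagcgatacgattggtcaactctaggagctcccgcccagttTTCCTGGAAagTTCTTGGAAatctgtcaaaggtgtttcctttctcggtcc

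Of all 32851 such windows, 8.3% hold this motif, as do 7% of those of tested genes, 6.86% of those of genes called higher and 6.01% of those called lower. It is in 4 of 16 windows of tested STAT5 target genes (25%) and in 12 of 52 windows of tested interferon genes (23.1%). A match is only a run of letters and does not show binding.

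Cish was at 34.3, 21.6, 30.0 and 30.2 CPM in WT and 116, 213, 161 and 241 CPM in TET2-FLT3 vehicle (2.66 ± 0.48 (adjusted p = 0.0021)), with every leukemic library above the WT range. Socs2, an inhibitor of the same loop, went from 0.230, 0.0756, 0 and 0.403 to 9.69, 19.9, 10.5 and 12.3 CPM (6.13 ± 0.98 (adjusted p = 0.000734)). The survival kinases Pim1 and Pim2 rose by 2.24 ± 0.51 (adjusted p = 0.0091) and 2.31 ± 0.53 (adjusted p = 0.0104). Id1, which blocks helix-loop-helix factors, went from 4.98, 5.97, 2.64 and 3.31 to 47.4, 50.1, 27.3 and 50.4 CPM (3.37 ± 0.40 (adjusted p = 5.33e-05)). With a library left out, 6 to 9 members rose, and without V1 and V5-2, 3 rose and 1 fell.

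On the MAPK side, Dusp6, the phosphatase that switches off ERK, was at 60.5, 82.5, 124 and 82.7 CPM in WT and 10.8, 20.001, 12.4 and 18.2 CPM in TET2-FLT3 vehicle (-2.51 ± 0.52 (adjusted p = 0.00534)). All 4 leukemic libraries lay below the lowest WT library. Etv5, an ERK-induced transcription factor, fell by 3.78 ± 0.69 (adjusted p = 0.00218), Spry4, an inhibitor of receptor signaling, fell by 5.13 ± 1.05 (adjusted p = 0.00484), and Egr1, an immediate-early gene, fell by 2.87 ± 0.75 (adjusted p = 0.0209), a call that ended without wt3, with an adjusted p of up to 0.0606. Dusp5, a nuclear ERK phosphatase that is on both lists, was the member that rose, and it did so through V5-2 (2.05, 9.53, 49.1 and 3.55 CPM against 1.91 ± 0.555 in WT); the call ended without V5-2 or wt4, with an adjusted p of up to 0.0952. Without wt3, 3 of the 17 fell, and without V1 and V5-2, 2 did.

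Interferon-induced genes rose in part. As background, interferons act through STAT and IRF factors, which bind repeats of the letters GAAA in the promoters of antiviral genes. Of 56 tested members 11 rose and none fell, with a median change of 0.60. The share called was 19.6%, against 4.43% of all accessions called higher. The start windows of Isg15, a ubiquitin-like antiviral protein, Ifi44 and the chemokine Cxcl10 are printed because all carry matches to the searched motif GAAANNGAA on one strand or the other, in capitals. The first GAA of this motif can also be the final GAA of the STAT motif above. They are RefSeq windows on GRCm38.p6, minus strand: chr4:156200769-156201068 with 3 overlapping matches, chr3:151749861-151750160 and chr5:92348840-92349139, whose second stretch in capitals is a match to the GATA motif AGATAA.

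Isg15: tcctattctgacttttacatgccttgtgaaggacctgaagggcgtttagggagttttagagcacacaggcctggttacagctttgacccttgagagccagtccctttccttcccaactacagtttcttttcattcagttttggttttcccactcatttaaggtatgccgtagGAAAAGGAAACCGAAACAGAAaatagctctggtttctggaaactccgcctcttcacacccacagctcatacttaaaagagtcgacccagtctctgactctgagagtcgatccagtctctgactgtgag

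Ifi44: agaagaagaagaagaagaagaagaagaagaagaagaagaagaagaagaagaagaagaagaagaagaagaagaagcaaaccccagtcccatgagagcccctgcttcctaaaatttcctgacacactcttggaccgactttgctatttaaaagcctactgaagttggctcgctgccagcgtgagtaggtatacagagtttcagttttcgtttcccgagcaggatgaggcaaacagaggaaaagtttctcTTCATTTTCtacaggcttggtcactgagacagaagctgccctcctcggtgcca

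Cxcl10: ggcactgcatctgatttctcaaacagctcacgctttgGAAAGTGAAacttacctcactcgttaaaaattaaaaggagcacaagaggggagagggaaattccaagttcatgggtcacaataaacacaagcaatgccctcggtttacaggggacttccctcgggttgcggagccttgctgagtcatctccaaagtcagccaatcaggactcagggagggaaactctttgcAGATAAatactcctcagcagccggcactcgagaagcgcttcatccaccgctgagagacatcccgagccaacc

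The motif is in 8.56% of all windows, 7.61% of those of tested genes, 11.9% of those of genes called higher and 6.66% of those called lower. Among the tested interferon genes it is in 28 of 52 windows (53.8%). For the GATA motif the shares are 11.2% of all windows, 6.84% of those of tested genes, 7.55% of those of genes called higher, 10.2% of those called lower and 5 of 16 windows of tested erythroid genes (31.2%). One of these belongs to Epor, whose fall is given above; its window, chr9:21963527-21963826, minus strand, is shown with the match in capitals.

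Epor: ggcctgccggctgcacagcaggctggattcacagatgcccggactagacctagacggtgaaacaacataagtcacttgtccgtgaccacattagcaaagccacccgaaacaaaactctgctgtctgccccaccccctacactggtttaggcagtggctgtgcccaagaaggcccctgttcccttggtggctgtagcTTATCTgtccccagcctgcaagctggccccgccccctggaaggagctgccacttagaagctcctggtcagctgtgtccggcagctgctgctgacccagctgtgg

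Cxcl10, which draws activated T cells, was at 2.76, 5.06, 2.23 and 3.23 CPM in WT and 26.2, 21.9, 15.4 and 23.9 CPM in TET2-FLT3 vehicle (2.71 ± 0.48 (adjusted p = 0.00158)). Ifi44, an interferon-induced protein, was at 75.0, 62.0, 82.9 and 112 and 227, 380.4, 195 and 139.7 CPM (1.503 ± 0.42 (adjusted p = 0.0281)), and the call ended without V5, wt1, wt2 or wt3, with an adjusted p of up to 0.0799. Isg15 was at 24.5, 30.3, 18.3 and 17.2 and 70.5, 65.5, 39.9 and 32.7 CPM (1.21 ± 0.34 (adjusted p = 0.0302)), and the call ended without V1, V5, wt1, wt3 or wt4, with an adjusted p of up to 0.0958. In all of these genes the leukemic libraries lay above the WT libraries, V19 being the closest to WT for Ifi44 and Isg15. Parp9, an antiviral ADP-ribosyltransferase, rose by 1.20 ± 0.22 (adjusted p = 0.00232) and kept its call without each library in turn. Without wt3, 4 members rose, without V19, 15 did, and without V1 and V5-2, 4 did. The list's median per library, relative to the WT mean, was 0.24 in V1, 0.99 in V5, 0.73 in V5-2 and 0.14 in V19, highest in V5 and V5-2.

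Ifi200 and Schlafen genes, which respond to interferon and to myeloid maturation, rose in part: 6 of 13 tested, none lower, with a median change of 1.92. Ifi204, a DNA sensor of a family of near-identical copies whose reads may be divided among them, went from 2.53, 2.80, 1.16 and 1.85 to 27.3, 28.6, 23.6 and 13.9 CPM (3.48 ± 0.53 (adjusted p = 0.000469)). Slfn2, needed for quiescence of T cells and monocytes, rose by 2.47 ± 0.51 (adjusted p = 0.00525). Without wt1, wt3 or wt4, and without V1 and V5-2, 3 of the 13 rose.

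The direct test against IDH2-FLT3 vehicle asked which of these patterns differed between the 2 leukemias. It called 506 of 11830 accessions (4.28%), 278 higher (2.35%) and 228 lower (1.93%) in TET2-FLT3 vehicle. The number varied with the libraries fitted: a fit of only these 2 groups, over 10681 accessions, called 17, leaving out V1 and V5-2 gave 228, and leaving out 1 library gave 114 (without V3 of IDH2-FLT3) to 1656 (without V5-2). Whether V3 and V3-2 of IDH2-FLT3 share an animal is not labelled, and their sum was not tried. None of the 15 conventional dendritic cell, 11 MHC class II, 22 erythroid or 17 MAPK feedback genes was called. Of 16 B cell genes 1 was, as higher. Xcr1 was at 50.3, 30.4 and 213.75 CPM and Gata1 at 6.08, 3.51 and 2.89 CPM in V3, V3-2 and V9. Both lay on the same side of WT as in TET2-FLT3 vehicle. Of the 56 interferon genes, 23 were higher than in IDH2-FLT3 vehicle and none was lower. Ifi44 was at 2.03, 0.962 and 6.82 CPM in the 3 IDH2-FLT3 libraries, a difference of 6.19 ± 0.59 (adjusted p = 3.52e-06), and Isg15 was at 5.57, 2.74 and 10.1 CPM, a difference of 3.09 ± 0.41 (adjusted p = 0.000295). For Cxcl10, at 2.70, 1.54 and 2.33 CPM, the difference was 3.32 ± 0.55 (adjusted p = 0.00233), and for Dhx58, a regulator of RNA sensing, it was 1.16 ± 0.28 (adjusted p = 0.023). In the fit of the 2 groups alone Ifi44 and Cxcl10 were still called (adjusted p = 0.0239 and 0.0372), and Isg15 and Dhx58 were not (0.0754 and 0.359). The IDH2-FLT3 values for Ifi44 and Isg15 lay below the WT range, and the TET2-FLT3 values above it.

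Granule genes went the other way. Of 25 granulocyte-monocyte progenitor genes 11 were lower than in IDH2-FLT3 vehicle, and of 19 late neutrophil genes 10 were, with none higher. The late neutrophil median relative to the WT mean was 2.69 in V3 and 1.82 in V3-2 of IDH2-FLT3. In V9 it was -1.0, within the TET2-FLT3 range of -1.85 to 0.16. Mpo was at 62810.0, 37336 and 11055 CPM in the IDH2-FLT3 libraries, and the difference, TET2-FLT3 minus IDH2-FLT3, was -3.21 ± 0.65 (adjusted p = 0.00702). It was -3.54 ± 0.69 (adjusted p = 0.00574) for Elane, -4.69 ± 1.01 (adjusted p = 0.0106) for Ngp and -2.82 ± 0.59 (adjusted p = 0.00868) for Csf1r. For Ngp and Csf1r the groups overlapped. V9 of IDH2-FLT3 was at 255 CPM for Ngp, below V1 at 352, and at 61.0 for Csf1r, below V5-2 at 87.3. Of 25 stem cell genes 5 were higher in TET2-FLT3 vehicle and none was lower: Hlf, at 32.2 ± 26.9 CPM (n = 3) in IDH2-FLT3 vehicle, differed by 2.57 ± 0.50 (adjusted p = 0.00577) and Procr, at 3.04, 3.90 and 13.6 CPM, by 2.64 ± 0.40 (adjusted p = 0.00135). Thy1 was also higher (2.44 ± 0.64 (adjusted p = 0.0325)) and the eosinophil gene Prg2 lower (-6.52 ± 0.996 (adjusted p = 0.00135)). For Thy1 the groups overlapped too, with V5 at 45.9 CPM, below V9 of IDH2-FLT3 at 53.4. None of these 8 genes was called in the fit of the 2 groups alone, where the smallest adjusted p among them was 0.0579, for Prg2.

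**Figure D4:**
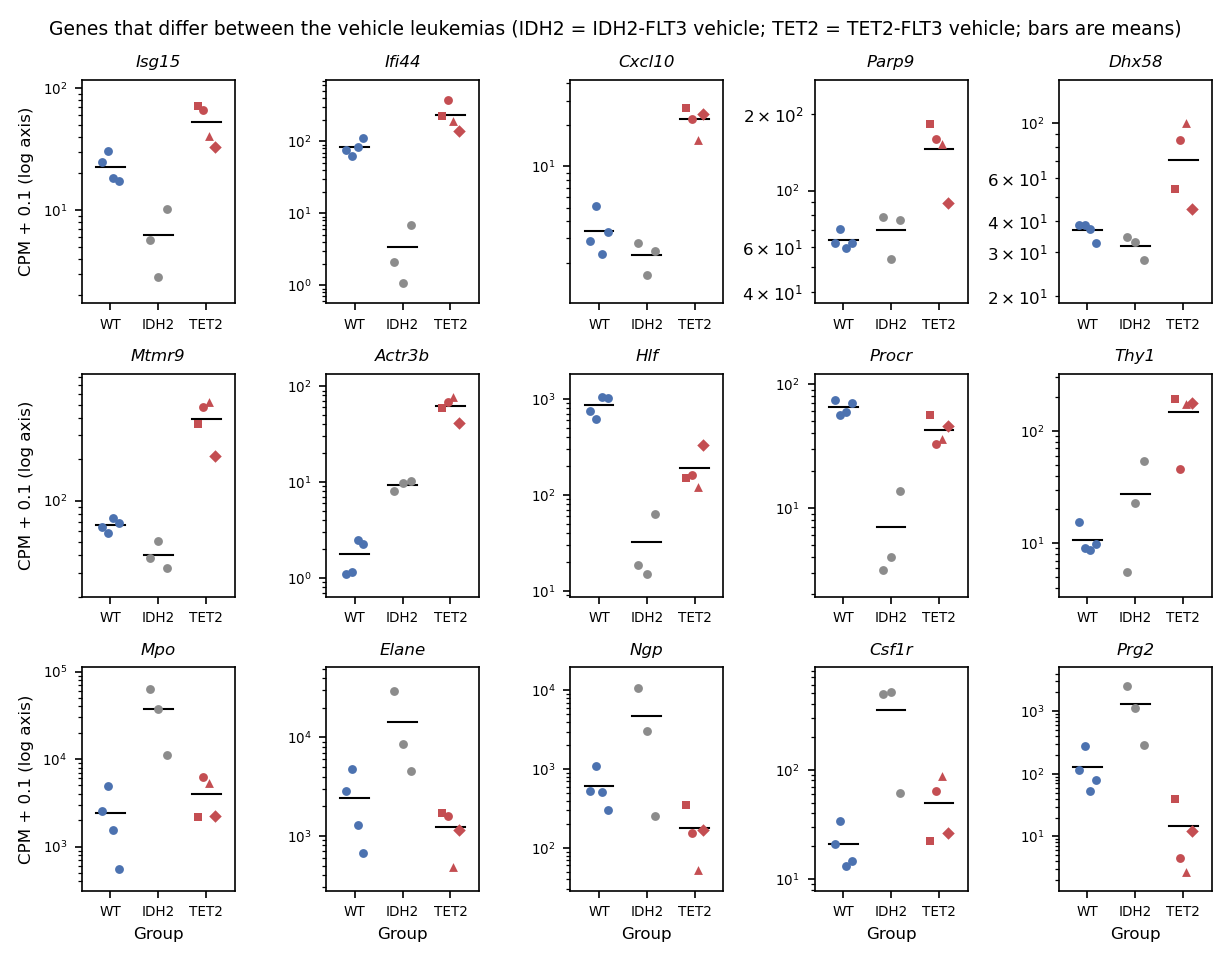
Each panel shows the level of 1 gene (CPM + 0.1, log axis) in the 4 WT (blue), 3 IDH2-FLT3 vehicle (grey) and 4 TET2-FLT3 vehicle libraries (red; square V1, circle V5, triangle V5-2, diamond V19), with group means as bars. Isg15 and Ifi44 lie below WT in IDH2-FLT3 vehicle and above it in TET2-FLT3 vehicle. Mtmr9 and Actr3b are highest in TET2-FLT3 vehicle, and Mpo is highest in IDH2-FLT3 vehicle. Elane and Csf1r have their highest means there, but its library V9 lies below wt2 for Elane and below V5-2 for Csf1r.

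**Figure D5:**
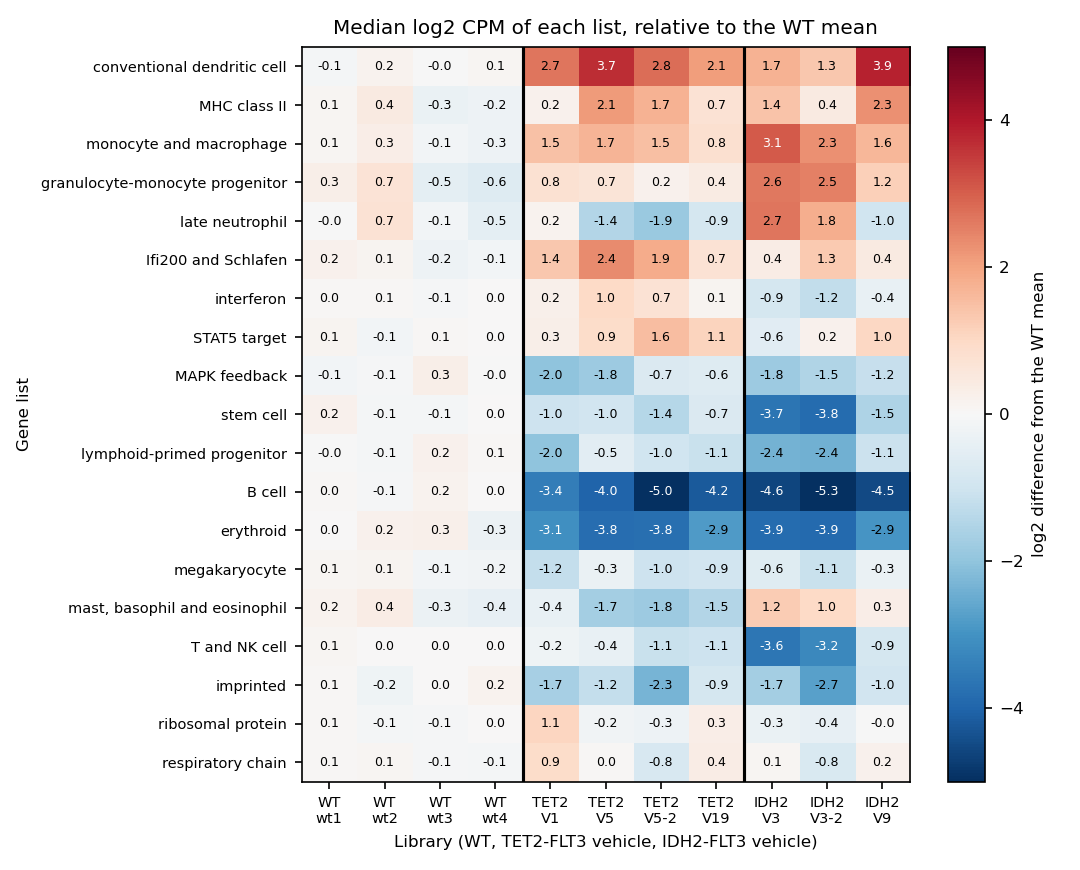
Each cell gives the median over a list's tested members of the log2 CPM in 1 library minus the WT mean; columns are the 4 WT, 4 TET2-FLT3 vehicle and 3 IDH2-FLT3 vehicle libraries, red is higher and blue lower. B cell and erythroid genes are low in all 4 TET2-FLT3 libraries, while late neutrophil, ribosomal protein and respiratory chain genes differ in sign between V1 and V5-2.

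Single genes outside the lists changed as well. Ccn3, a secreted matrix protein, was nearly absent from WT at 0.307, 0, 0.165 and 0.161 CPM and at 98.9, 51.1, 99.3 and 117 CPM in TET2-FLT3 vehicle (9.10 ± 0.83 (adjusted p = 2.69e-06)). Actr3b, an isoform of the actin-branching complex, went from 0.996, 1.06, 2.396 and 2.18 to 59.4, 68.7, 77.8 and 41.7 CPM (5.22 ± 0.45 (adjusted p = 2.10e-06)), and was also above IDH2-FLT3 vehicle, at 7.93, 9.62 and 10.3 CPM, by 2.74 ± 0.44 (adjusted p = 0.00194). Mtmr9, a phosphatase-like protein that regulates myotubularins, was at 64.3, 58.0, 74.7 and 68.5 CPM in WT and 358, 478, 521 and 209.7 CPM in TET2-FLT3 vehicle (2.56 ± 0.26 (adjusted p = 6.86e-06)). It was at 38.0, 50.7 and 32.0 CPM in IDH2-FLT3 vehicle, a difference of 3.28 ± 0.30 (adjusted p = 2.43e-06), and both it and Actr3b were called there with only the 2 groups fitted (adjusted p = 0.0372 for each). Bhlhe40, a helix-loop-helix repressor, rose by 2.89 ± 0.30 (adjusted p = 8.64e-06), Stxbp6, a regulator of vesicle fusion, by 4.48 ± 0.55 (adjusted p = 6.79e-05) and Elovl7, a fatty acid elongase, by 2.31 ± 0.28 (adjusted p = 6.61e-05). Ncam2, a neural adhesion molecule, Cp, ceruloplasmin, and Tshz2, a zinc finger factor, all with WT means below 0.2 CPM, rose by 7.28 ± 1.27, 6.98 ± 1.05 and 6.86 ± 1.07. Among the genes that fell, Cecr2, a bromodomain protein, had 658 counts in WT and 1 in TET2-FLT3 vehicle, a ratio of 737 (95% counting interval 132 to 29170). Trib2, a pseudokinase, fell by 6.66 ± 0.93 (adjusted p = 0.000241) and Efcc1 fell by 3.02 ± 0.38 (adjusted p = 9.18e-05).

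Genes for migration and adhesion also changed. The receptors for sphingosine 1-phosphate, a lipid that draws cells into the blood, moved in opposite directions: S1pr1 went from 33.0, 27.4, 29.8 and 39.1 to 3.41, 2.23, 1.03 and 4.61 CPM (-3.54 ± 0.50 (adjusted p = 0.000253)), and S1pr3 rose by 2.16 ± 0.39 (adjusted p = 0.00204). Cxcr4, the receptor that holds cells in the marrow, was at 1326, 118, 284 and 415 CPM in TET2-FLT3 vehicle, highest in V1, against 142 ± 20.1 CPM in WT, and its call (1.91 ± 0.56 (adjusted p = 0.0358)) ended without V1, wt1, wt2, wt3 or wt4, with an adjusted p of up to 0.218. Among 31 integrin and adhesion genes 4 rose and 7 fell (1 and 1 without V1 and V5-2; without 1 library, 2 to 6 rose and 2 to 4 fell). Itgb7, the beta chain that pairs with the Itgae product, rose by 1.98 ± 0.48 (adjusted p = 0.0138), and Itga2, a collagen receptor chain, fell by 3.65 ± 0.69 (adjusted p = 0.00271). Of 24 TGF-beta and BMP genes 2 rose and 3 fell (1 and 1 without V1 and V5-2). Among them the coreceptor Tgfbr3 fell by 3.09 ± 0.43 (adjusted p = 0.000241). The adhesion and TGF-beta lists had 35.5% and 20.8% of members called, against 10.1% of all accessions.

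Few cell cycle genes were called. Of 32 tested S phase genes 1 rose (Pcna, a DNA clamp, 0.83 ± 0.26 (adjusted p = 0.0427)) and of 35 G2/M genes 1 rose (Cdc20, an activator of anaphase, 0.84 ± 0.22 (adjusted p = 0.0212)), shares below the 4.43% of all accessions; the calls ended without V1, wt1, wt2, wt3 or wt4, with an adjusted p of up to 0.155 for Pcna and without wt1 or wt4, with an adjusted p of up to 0.0697 for Cdc20, and neither was called without V1 and V5-2. Without V5-2 alone, 5 G2/M genes rose. Of 23 apoptosis genes 5 rose and none fell (3 without any 1 WT library, or without V1 and V5-2). The share called was 21.7%, against 4.43% of all accessions called higher. Pmaip1, the death-promoting NOXA gene, went from 1.69, 3.32, 2.56 and 0.806 to 14.3, 33.9, 22.5 and 21.2 CPM (3.45 ± 0.52 (adjusted p = 0.000412)), and Casp1, the inflammasome protease, rose by 1.09 ± 0.24 (adjusted p = 0.00682).

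Several metabolic lists held a few calls, all higher: 4 of 24 cholesterol synthesis genes, 4 of 28 hypoxia and glycolysis genes, 3 of 27 unfolded protein genes and 2 of 24 serine and glycine genes. The shares were 16.7%, 14.3%, 11.1% and 8.33%, against 4.43% of all accessions called higher. The counts were 1, 1, 0 and 1 without wt3 and 1, 0, 0 and 1 without V1 and V5-2. Cyp51, a sterol demethylase, rose by 1.26 ± 0.24 (adjusted p = 0.00301), Egln3, an oxygen sensor, by 2.25 ± 0.45 (adjusted p = 0.00378), and Gldc, the decarboxylase of the glycine cleavage system, by 5.17 ± 0.99 (adjusted p = 0.00297) from almost no counts in WT. Calr, an endoplasmic reticulum chaperone, rose by 1.27 ± 0.33 (adjusted p = 0.0186), a call that ended without V1, wt3 or wt4, with an adjusted p of up to 0.0652. Ptgs1 and Hpgds, enzymes of prostaglandin synthesis, fell (-2.41 ± 0.51 and -2.44 ± 0.55). For 45 respiratory chain and 57 ribosomal protein genes the median changes were 0.47 and 0.36, and both were negative on log2(FPKM + 1) values (-0.008 and -0.005), so no direction is given for them. Their medians relative to WT were 0.93 and 1.06 in V1 and -0.79 and -0.26 in V5-2.

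For the pathway that TET2 belongs to, 16 DNA methylation genes were tested and 2 fell, against 5.71% of all accessions. The count was 1 without V1, V5-2, wt1, wt2, wt3 or wt4, and 0 in edgeR's test without V1 and V5-2. The accessions of Dnmt1, Dnmt3a and Dnmt3b held 79, 15 and 0 counts over all 19 libraries and could not be judged. Among 37 chromatin regulators 4 were called (10.8%, against 10.1% of all accessions), a share near the background. All 4 fell, including Kmt2a and Kmt2c, histone H3 lysine methyltransferases (-1.11 ± 0.30 and -1.08 ± 0.29), and Cbx7, a Polycomb protein (-1.21 ± 0.32). These calls ended without wt3 or wt4, with an adjusted p of up to 0.0673 for Kmt2a, without wt1, wt3 or wt4, with an adjusted p of up to 0.0689 for Kmt2c and without V5, wt3 or wt4, with an adjusted p of up to 0.102 for Cbx7, and without V1 and V5-2 no chromatin regulator was called. Of 11 imprinted genes, which are expressed from 1 parental copy under the control of DNA methylation, 5 fell and none rose. Peg12 went from 51.0, 49.2, 42.8 and 41.4 to 1.91, 10.2, 1.81 and 8.26 CPM (-3.05 ± 0.76 (adjusted p = 0.0163)). Phlda2, a growth-restraining gene, fell by 2.57 ± 0.55 (adjusted p = 0.00628), and Kcnq1ot1, a long noncoding RNA that silences its neighbours, fell by 2.57 ± 0.69 (adjusted p = 0.0236), a call that ended without V1 or wt4, with an adjusted p of up to 0.0656. Without wt4, and likewise without V1 and V5-2, 3 of the 11 were called, all lower.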

How the data were processed

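RNA was measured in 19 libraries: 8 enter the main comparison, and these with 3 IDH2-FLT3 vehicle, 4 AG-221 and 4 5-Aza libraries enter the fit. Per the labels' protocols, polyA RNA of sorted cells was amplified with a SMARTer Ultra Low Input kit. Per the submitters' processing notes, reads were aligned to mm9 with STAR 2.4.0f1 and counted with featureCounts of Subread 1.4.5-p1; strand use is not given in the sources used here. The authors deposited raw counts per RefSeq accession, and a second deposited table holds FPKM per accession, used here only for the log2 alternatives. Of 33862 accessions 33485 were named from a RefSeq table (GRCm38.p6, for names and promoter windows only) and 188 from GENCODE; 5140 genes have several accessions, and the one with the highest level was used, so their levels are incomplete. Columns were joined to groups by header and title; those of TET2-FLT3 vehicle carry a group but no replicate number, and no batch is labelled.

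Counts were tested with edgeR 4.0.16 (R 4.3.3): filterByExpr over 5 groups kept 11830 accessions, TMM factors scaled them, and 5 group means were fitted by quasi-likelihood, with 14 residual degrees of freedom and a biological coefficient of variation of 42.9%. In simulated data of the same depths and spread (11525 genes), 2-, 4- and 8-fold changes were given to 67, 65 and 64 genes. For this comparison 13.4%, 55.4% and 87.5% of them were called, and of 11329 genes left unchanged 5 were called. The share of genes changed was smaller than the share called in the data, which makes the adjusted threshold harder to pass. Alternatives were RLE size factors, a filter left out or made stricter (at least 4 libraries of 5 CPM), the 2 groups fitted by themselves, DESeq2 1.42.0, voom with sample weights and limma-trend of limma 3.58.1, the latter on log2(FPKM + 1) and log2(FPKM + 0.1), V5 and V5-2 summed, a fold minimum of 1.5 and each library left out; leaving out V1 and V5-2 together was added after the data were seen. Counting intervals are exact at 95% and cover counting error only.

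The comparison, the 46 gene lists and the motifs were chosen with earlier results of these data known. List members are those that passed the filter, which keeps a gene that is expressed in 1 group only. Named genes came from fixed targets, the 12 largest changes per direction among called genes of at least 5 CPM without overlap, the 8 smallest p per direction, up to 4 called members per list and uncalled members for contrast. The choice among these, and 14 called genes outside the rule, was made after values were seen. Predicted and small RNA genes were left out, and some list members are not reported here.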

Additional observations from a re-analysis of the deposited data

Results flagged for a closer look

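In 15 of 230 groups of 4 libraries looked at, 1 library lay beyond Dixon's 95% critical value for groups of that size; chance alone flags about 1 in 20 groups. In the TET2-FLT3 vehicle group, V5-2 stood apart with 31.5 CPM for Tlr9, 49.1 for Dusp5, 27.3 for Id1 (the lowest) and 0.0411 for Cecr2. V19 stood apart with 0.288 CPM for Cd3e and 3.55 for Satb1, and V5 with 38.2 CPM for Batf3, 45.9 for Thy1 (the lowest) and 0.270 for Cd2. For Cecr2, Cd3e and Cd2 the TET2-FLT3 libraries held 1, 3 and 4 counts, all in the library named. There the flag follows from the zeros of the others, and the rate of 1 in 20 does not apply. In WT, wt1 stood apart with 15.3 CPM for Thy1 and 34.6 for Pim2, wt2 with 20.2 CPM for Xcr1, wt3 with 31.6 CPM for Etv5 and 78.2 (the lowest) for Casp1, and wt4 with 17.9 CPM (the lowest) for Bank1.

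By the direct test, 23 named genes differed between the leukemias (TET2-FLT3 minus IDH2-FLT3 vehicle, log2 scale, edgeR, adjusted p under 0.05). The interferon genes Ifi44 (6.19), Cxcl10 (3.32), Isg15 (3.09), Dhx58 (1.16) and Parp9 (1.07) were higher in TET2-FLT3 vehicle. So were Hoxb8 (6.23), Phlda2 (3.81), Mtmr9 (3.28), Actr3b (2.74), Procr (2.64), Hlf (2.57), Thy1 (2.44), Ccn3 (2.41), Pim2 (2.21) and Efcc1 (1.53). Lower were Prg2 (-6.52), Ngp (-4.69), Fcer1a (-3.98), Elane (-3.54), Mpo (-3.21), Csf1r (-2.82), Ptgs1 (-2.23) and Cx3cr1 (-1.54). With only these 2 groups fitted, Ifi44, Cxcl10, Mtmr9 and Actr3b kept their calls.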

How the results depend on the processing

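The 102 called genes whose own values are given kept their direction in every setting that tested them, and none lost its call with DESeq2. Hoxb3 and Car1, for which no change is printed, are not among them. Of the 102, 78 kept the call without each library in turn and 60 without V1 and V5-2. In all settings that tested them, 56 kept it. For Flt3, which was not called, leaving out 1 library moved the log2 change from -0.43 to 0.12, so its sign is not set. The number of genes called against WT, 1199, was 503 to 1410 with 1 library left out, 1928 with DESeq2, 1884 on log2(FPKM + 1), 503 with a fold minimum of 1.5 and 261 without V1 and V5-2. The number called against IDH2-FLT3 vehicle, 506, was 114 to 1656 with 1 library left out. It was 17 with only these 2 groups fitted, 1150 with DESeq2, 192 with limma-voom, 805 with V5 and V5-2 summed, 247 with the fold minimum and 228 without V1 and V5-2. The cause was not tested, beyond the fewer libraries of some settings. No paired analysis was possible because the TET2-FLT3 columns carry no replicate number. In the simulation, which changed fewer genes than were called here, a change of 2-fold mostly went uncalled. A gene that was not called may therefore still differ.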

Other observations

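Hox genes, which set the identity of early progenitors, and their cofactors were mostly not called against WT. Of 17 tested, Hoxb8 rose and Hoxb3 fell. This share of 11.8% is near the 10.1% of all accessions called. No member of the list fell with the filter left out or with only the 2 groups fitted. Hoxb8 was at 0.0767, 0, 0 and 0.161 CPM in WT and 1.91, 0.676, 6.61 and 0.480 CPM in TET2-FLT3 vehicle (5.17 ± 1.18 (adjusted p = 0.00988)), and at 0.0844, 0 and 0 CPM in IDH2-FLT3 vehicle. In the direct test 5 of the 17, all of the Hoxb cluster, were higher in TET2-FLT3 than in IDH2-FLT3 vehicle and none was lower. Of all accessions, 2.35% were called higher in that test. The fit of only these 2 groups called 17 accessions and gave no value for Hoxb8. Of 33 JAK-STAT and cytokine receptor genes 4 rose and 4 fell (2 and 3 without V1 and V5-2), and of 20 NF-kB target genes 3 rose and none fell (1 rose without V1 and V5-2). Of 10 tested endothelial and stromal genes 2 fell and none rose, and none was called without V1 and V5-2. The JAK-STAT, NF-kB and endothelial lists had 24.2%, 15% and 20% of members called, against 10.1% of all accessions.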
